A study of Mus musculus with 23 samples.

Results

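Chemokines are small secreted proteins that guide cell movement by binding receptors coupled to G proteins, and the 52 mouse genes described here are those whose names on the array mark them as CC, CXC, CX3C or XC chemokines or as their receptors. The name rule picked 64 probes among 55681, and the brightest probe of each gene stood for it, which left 52 of 36095 gene names. The members were 19 CC ligands, 13 CXC ligands, the CX3C ligand Cx3cl1, the XC ligand Xcl1 and 18 receptors. Cxcr7 is the array's name for the receptor now called Ackr3.

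The arrays followed muscle cell formation in 7 groups of 3 samples. Embryonic stem cells came from 3 lines of strains 129Sv, 129X1/SvJ and 129/Ola, and the 2 arrays of the third line, E14tg2, were averaged. Primary myoblasts, the dividing precursors of muscle fibres, were C57BL/6J cells taken either at passage 0 or while proliferating at passages 8 to 10. Proliferating cultures switched to low-serum medium fused into myotubes, which were sampled after 1, 2 and 4 days. Quadriceps muscle came from 1 C57BL/6J and 2 129Sv/C57BL/6J mice, and skeletal muscle of 1 NOD/ShiLtj mouse was left out of every test. The labels give every sample as male except the E14tg2 line, whose sex they leave out. They give no age, no genetic change and no drug for any group. The titles of the proliferating myoblasts and of each day of myotubes carry the numbers 21, 26 and 28, and those of passage 0 myoblasts 26, 30 and 42. The labels do not say what these numbers mean or whether replicates came from separate animals or cultures. The spread behind each p-value is that among the deposited samples and may be technical.

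In muscle, chemokines released by injured fibres, resident macrophages and connective tissue cells call in neutrophils and monocytes, whose products act on the precursor cells. The ligand Cxcl12 is known for a further role, in which it steers migrating muscle precursors through the receptor Cxcr4 while Cxcr7 takes it up and clears it. Most chemokine genes lie in tandem clusters and share induction by NF-kB or interferon signalling.

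Levels are log2 signals relative to each array's 75th percentile, so 0 is the signal of a spot at that percentile and 1 unit is a doubling. Levels may be compared between samples for a gene, not between genes, because probes differ in brightness. Of the arrays' spots, 39.1% to 60.1% were well above background. The dimmest array was proliferating myoblast replicate 1, whose 75th percentile was 87.7 against 208 to 765 elsewhere. Spots below background on it therefore sit higher on the relative scale than on other arrays. The samples carried the markers of their labels. All 7 stem cell markers were well above background in every stem cell sample, and all 6 myoblast markers in every myoblast, myotube and muscle sample. All 7 myotube markers were also above background in every passage 0 and proliferating myoblast sample. Detection thus did not set myoblasts apart from myotubes. The summed myotube markers read 9.78 to 10.48 at passage 0, 8.91 to 10.00 in proliferating myoblasts and 11.36 to 11.61 at day 1 (log2).

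Of the 52 members, 26 were well above background throughout 1 group or more, and 9 in no sample of the 7 groups. Those 9 were the ligands Ccl1, Ccl20, Ccl26, Ccl28, Cxcl17 and Xcl1 and the receptors Ccr1, Ccr6 and Cxcr5. Ligands were measured more often than receptors, with 20 of 34 ligands and 6 of 18 receptors in the first class. Passage 0 myoblasts held the most members above background in every sample, 22, followed by quadriceps with 17, day 1 myotubes with 15, proliferating myoblasts with 14, and stem cells and day 4 myotubes with 12 each. Day 2 myotubes held 7. These counts also move with the brightness of the arrays. Ccl25, Cx3cl1, Cxcl11, Cxcl12 and Cxcr7 were above background in all 21 samples of the 7 groups.

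**Figure D1:**
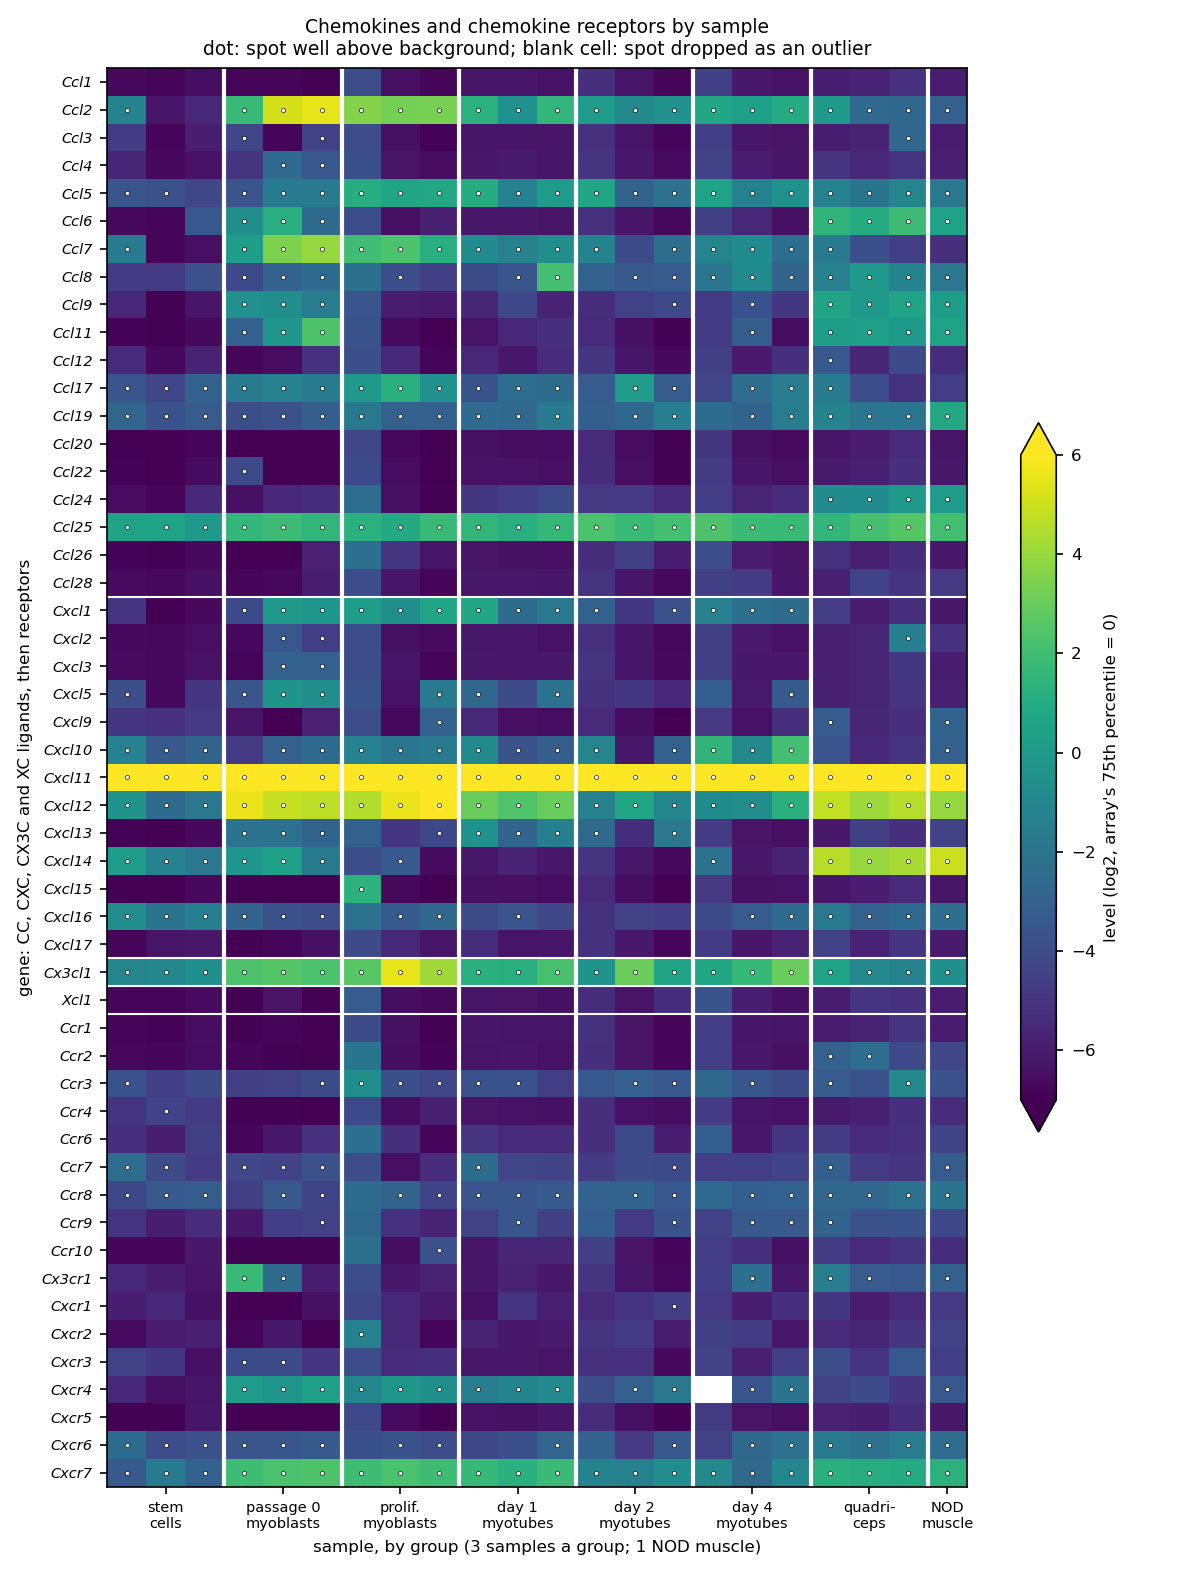
Level of 51 of the 52 members (rows; log2, array's 75th percentile = 0) in each of the 3 samples of 7 groups and in 1 NOD muscle sample (columns), with a dot where the spot was well above background. Rows may be read across samples but not against each other. Most receptors carry few dots, Cxcl12 and Cxcr7 darken in day 2 and day 4 myotubes, and Cxcl11 lies past the top of the colour scale everywhere.

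For a test, a member had to be well above background throughout one or both groups of the comparison, and a call needed an adjusted p under 0.05 over all genes tested together with at least a 2-fold change. Passage 0 myoblasts had more chemokine RNA than stem cells for 13 of 24 tested members and less for 1, beside 17.5% of all genes tested that were higher and 19.8% that were lower (37.3% in all). In the stem cells, 4 of the 13 were above background in every line, 3 in 1 line and 6 in none. A member that passed the filter only through its brighter group was likely beforehand to differ, so these counts are not read against the shares of all genes. With both groups required to be above background, 4 were higher. Proliferating myoblasts had none higher and 4 of 24 lower than passage 0 myoblasts, beside 0.393% and 0.771% of all genes (1.16% in all), and 9 of the 24 had an unadjusted p under 0.05. All 4 had qualified through passage 0 alone, since 3 were above background in no proliferating sample and 1 in 1 sample. With both groups required to be above background, 0 were lower. The share of all genes called under that stricter filter was not computed, so neither count is read against one.

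Within differentiation every called member fell. Day 1 myotubes had 0 higher and 3 of 16 lower than proliferating myoblasts, beside 5.9% and 3.25% of all genes (9.15% in all). Day 2 myotubes had 0 higher and 2 of 15 lower than day 1, beside 0.599% and 2.17% (2.77% in all). Between day 2 and day 4 limma called 0 of 12 in either direction, with 1 at an unadjusted p under 0.05, beside 0.248% higher and 0.062% lower of all genes (0.31% in all). From proliferating myoblasts to day 4 myotubes 0 were higher and 5 of 15 lower, beside 14.4% and 10.2% of all genes (24.6% in all). Of those 5, 4 were above background in every sample of both groups, where Cxcr4 counts with a day 4 spot that was left out as an outlier. Quadriceps had 7 of 21 higher and 4 lower than day 4 myotubes, beside 14.7% and 16.3% (31% in all). Of these, 2 higher and 1 lower were above background throughout both groups, and the others had qualified through 1 group alone. In all, 39 member differences were called, and they lay on 16 ligands and 2 receptors, Cxcr4 and Cxcr7. Comparisons that share a group share its samples, so their calls are not independent of each other. Of the 39 differences, 37 had a value on each of the 3 slides and 2, both of Cxcr4, on 2 slides, and all kept their sign on every slide with a value. Since they were called on these same samples, that was likely beforehand and is no separate test.

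**Figure D2:**
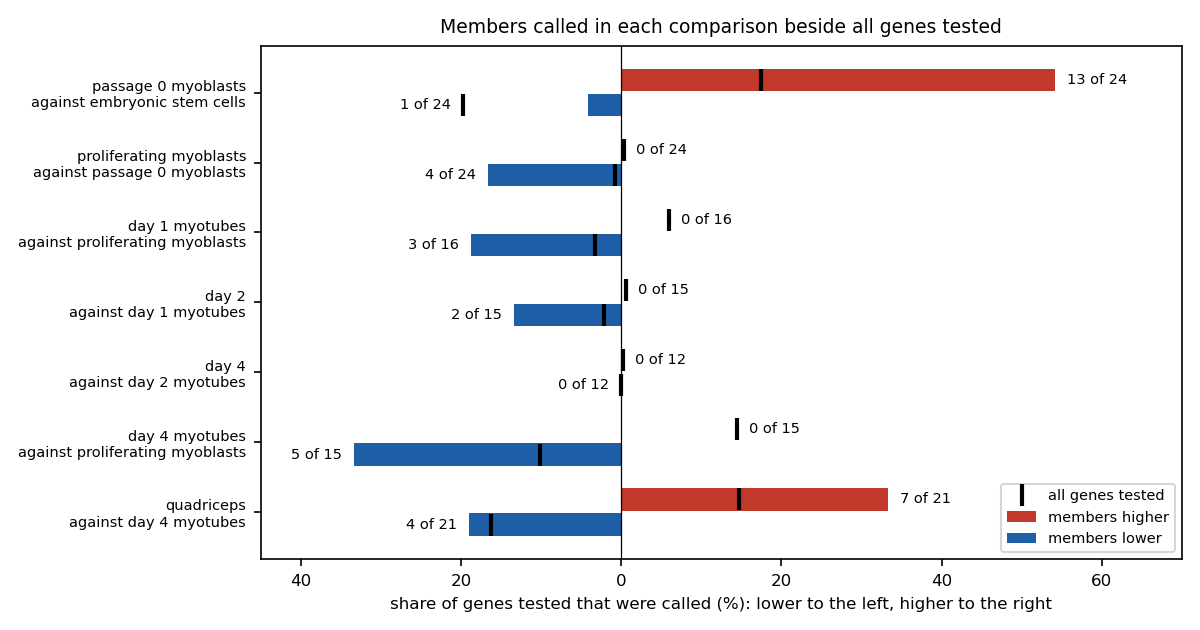
Share of tested genes that were called in each of 7 comparisons (horizontal axis, %; higher to the right, lower to the left), for the members (bars, with their counts) and for all genes tested (black ticks). In passage 0 myoblasts 13 of 24 members were higher, beside a tick at 17.5%, but 9 of the 13 had qualified through passage 0 alone; no member was called higher in any comparison among proliferating myoblasts and myotubes.

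Cxcl12 and both of its receptors were high in myoblasts and fell as myotubes formed. Cxcl12, the stromal factor that holds and guides precursor cells, read -0.26, -2.46 and -1.83 in the stem cell lines, 5.62, 4.86 and 4.71 in passage 0 myoblasts and 4.52, 5.61 and 6.01 in proliferating myoblasts. It read 2.97, 2.40 and 3.00 at day 1, -1.22, 0.63 and -1.02 at day 2 and -0.70, -0.61 and 1.26 at day 4, then 4.81, 4.11 and 4.55 in quadriceps. The myoblast and muscle samples lay above every myotube sample, and the stem cell lines overlapped myotubes of days 2 and 4. Against stem cells, Cxcl12 was 95.7-fold higher in passage 0 myoblasts (log2 difference 6.58, SE 0.63, adjusted p = 1.8e-07). It fell 6.01-fold from proliferating myoblasts to day 1 (adjusted p = 0.014) and a further 10.04-fold to day 2 (adjusted p = 0.0063).

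From proliferating myoblasts to day 4 the fall in Cxcl12 was 42.1-fold (log2 difference -5.39, SE 0.63, adjusted p = 1e-05), and quadriceps stood 22.7-fold above day 4 (log2 difference 4.50, adjusted p = 2.3e-05). On the 3 slides the day 4 difference was -5.13, -6.71 and -4.35. The day 1 step was no longer called in a fit of its 2 groups alone (adjusted p = 0.14), without proliferating myoblast replicate 3 (adjusted p = 0.054) or day 1 replicate 2 (adjusted p = 0.055). The day 2 step was not called without the arrays whose titles carry the number 21 (adjusted p = 0.075). The array holds a second Cxcl12 probe, made from another transcript of the gene. On that probe the day 1 step, -2.26, was not called (adjusted p = 0.065 over all probes). The day 4 level there lay 4.49 below proliferating myoblasts and the quadriceps level 2.34 above day 4, both called in a fit over all probes (adjusted p = 0.00019 and 0.019).

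Cxcr7, the receptor that removes Cxcl12 from the cell surface, followed a later course. It read -3.38, -1.57 and -2.91 in stem cells, 1.97, 2.27 and 2.37 in passage 0 myoblasts, 1.98, 2.25 and 1.97 in proliferating myoblasts and 1.71, 1.24 and 1.86 at day 1. It then read -1.21, -1.32 and -0.60 at day 2, -0.86, -2.52 and -0.96 at day 4 and 1.24, 1.08 and 1.01 in quadriceps. Both myoblast groups, day 1 myotubes and quadriceps lay above all day 2 and day 4 samples. Passage 0 myoblasts exceeded stem cells 28.3-fold (adjusted p = 1.4e-07). The day 1 difference from proliferating myoblasts, -0.46 (SE 0.45), was not called (adjusted p = 0.63), whereas the next step, to day 2, was a 6.27-fold fall (log2 difference -2.65, SE 0.45, adjusted p = 0.0029). Whether Cxcl12 and Cxcr7 differed in their day 1 step was not tested. By day 4 Cxcr7 had fallen 11.4-fold from proliferating myoblasts (adjusted p = 2.5e-05), and quadriceps was 5.88-fold above day 4 (adjusted p = 0.00025).

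Cxcr4, the signalling receptor for Cxcl12, was not well above background in any stem cell or quadriceps sample. In passage 0 myoblasts it read 0.18, -0.21 and 0.36, in proliferating myoblasts -1.05, -0.13 and -0.54, at day 1 -1.50, -1.12 and -0.82 and at day 2 -3.91, -3.02 and -1.78. At day 4 it read -3.59 and -2.00 in replicates 2 and 3, because the spot of replicate 1 was left out as an outlier. That spot's background flag still counted in the filter, and Cxcr4 qualified for the test of quadriceps against day 4 through it. The myoblast and day 1 groups overlapped from one to the next, and the day 2 and day 4 values lay below all of them. Cxcr4 was at least 26.7-fold higher in passage 0 myoblasts than in stem cells, a bound set against the lowest signal well above background on the dim arrays (adjusted p = 5.1e-08). It was 4.67-fold lower at day 4 than in proliferating myoblasts (log2 difference -2.22, SE 0.57, adjusted p = 0.0076), but not without day 4 replicate 2 (adjusted p = 0.16).

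In quadriceps Cxcr4 was 3.17-fold lower than at day 4 as measured (adjusted p = 0.032). The bound was at least 1.69-fold, under the 2-fold needed for a call. That call was lost without day 4 replicate 3 (adjusted p = 0.34), quadriceps replicate 1 (0.064) or quadriceps replicate 3 (0.10), and with normexp background correction (0.63). It was also lost with the authors' processed values (0.17) and with spots below background raised to the array's lowest signal well above background, here called the floor (0.26).

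**Figure D3:**
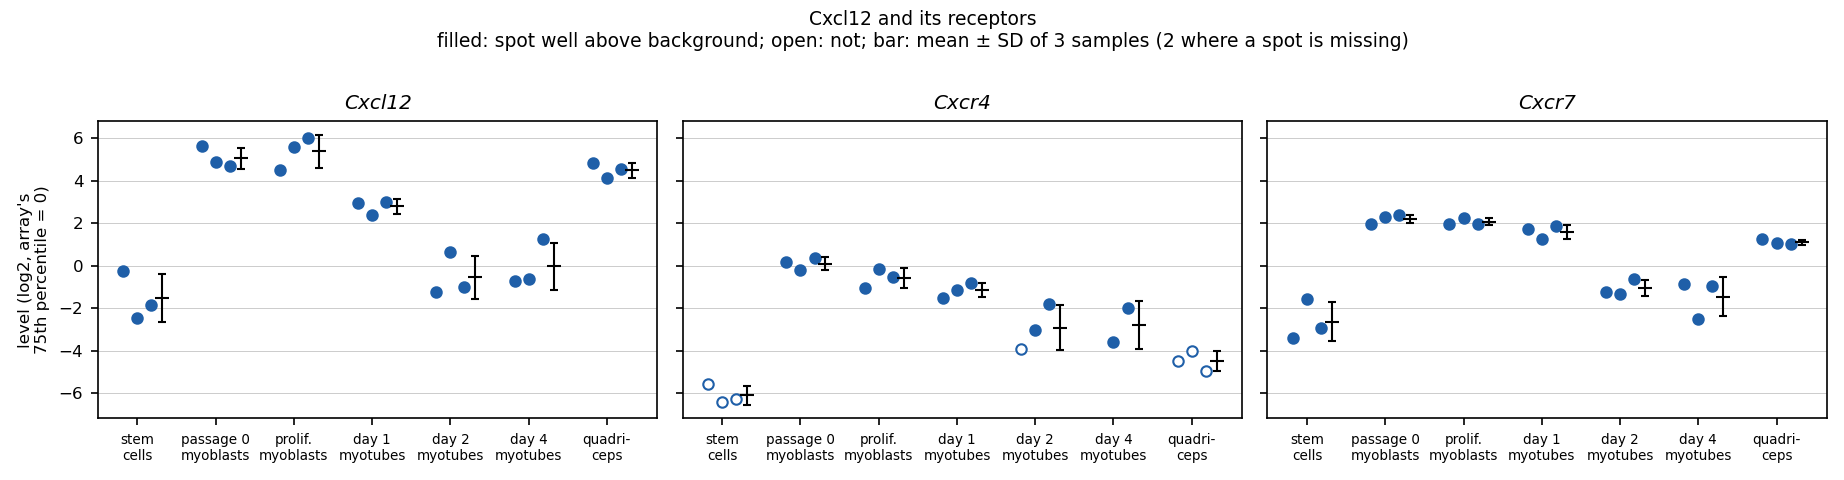
Level of Cxcl12, Cxcr4 and Cxcr7 (vertical axis, log2, array's 75th percentile = 0) in 7 groups (horizontal axis), as 1 point per sample with the mean and SD beside it; open points are spots not well above background. Cxcl12 and Cxcr7 drop in day 2 and day 4 myotubes and are high again in quadriceps, where all 3 Cxcr4 points are open.

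The stretches before the starts of these 3 genes are shown because each was called lower at day 4 than in proliferating myoblasts. Each line gives the 250 bases before the RefSeq start on the gene's strand, build GRCm38.p6, which is not the array's build mm9. Capitals mark matches on either strand to the GC box GGGCGG and, for the receptors, to the TATA element TATAAA; adjacent matches can share letters.
Cxcl12, chr6:117168285-117168534, plus strand: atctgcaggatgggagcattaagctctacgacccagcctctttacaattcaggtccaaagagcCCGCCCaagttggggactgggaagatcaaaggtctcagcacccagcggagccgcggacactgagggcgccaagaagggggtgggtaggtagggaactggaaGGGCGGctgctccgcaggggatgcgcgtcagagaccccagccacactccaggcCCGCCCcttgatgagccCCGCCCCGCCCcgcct
Cxcr7 (Ackr3), chr1:90203730-90203979, plus strand: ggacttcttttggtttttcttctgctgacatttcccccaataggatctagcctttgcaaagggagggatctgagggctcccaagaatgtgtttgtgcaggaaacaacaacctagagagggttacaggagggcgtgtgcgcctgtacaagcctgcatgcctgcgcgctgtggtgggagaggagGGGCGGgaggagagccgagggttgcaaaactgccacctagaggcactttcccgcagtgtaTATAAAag
Cxcr4, chr1:128592300-128592549, minus strand: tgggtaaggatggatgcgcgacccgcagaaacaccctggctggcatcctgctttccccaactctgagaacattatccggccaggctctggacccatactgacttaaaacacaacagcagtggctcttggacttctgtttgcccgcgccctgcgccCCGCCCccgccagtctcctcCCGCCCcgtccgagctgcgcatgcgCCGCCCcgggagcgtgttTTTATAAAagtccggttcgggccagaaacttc

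All 3 windows held the GC box. Of the 37 members with a promoter in the RefSeq table, 7 held it (18.9%), against 32.9% of 27025 promoters. The TATA element was in 10 of 37 (27.0%) and in 12.97% of all promoters. The E box CAGCTG, a sequence that myogenic factors bind, was in 7 of 37 (18.9%) and in 12.8% of all, and in none of these 3 windows. The remaining 15 members have no entry there. A match is a description of letters and no measured site.

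Ccl2 and Ccl7, neighbouring genes for monocyte attractants in the cluster at chr11:81850650-81990227 (mm9), were brightest in the myoblast groups. Ccl2 read -1.12, -6.25 and -5.53 in the stem cell lines, 1.80, 5.18 and 5.49 in passage 0 myoblasts and 3.59, 3.28 and 3.32 in proliferating myoblasts. It read 1.29, -0.41 and 1.54 at day 1, 0.17, -0.82 and -0.45 at day 2, 0.78, 0.31 and 1.02 at day 4 and 0.02, -2.55 and -2.61 in quadriceps. Only stem cell replicate 1 was above background among the stem cell lines, and passage 0 replicate 1 was the lowest of its group. The same held for Ccl7, which was above background in 1 of 3 lines. Ccl2 was 352-fold higher in passage 0 myoblasts than in stem cells as measured (log2 difference 8.46, SE 1.11, adjusted p = 7.5e-06) and 194-fold with the spots below background raised to the floor (adjusted p = 3.6e-06). Ccl7 was 185-fold higher as measured (log2 difference 7.53, SE 1.19, adjusted p = 5.4e-05) and 72.6-fold with that floor (adjusted p = 2.8e-05).

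Ccl7 read 0.28, 3.44 and 3.96 in passage 0 myoblasts, 1.99, 2.33 and 1.22 in proliferating myoblasts and -1.11, -0.69 and -2.29 at day 4. All 3 day 4 samples of both genes lay below all 3 proliferating samples, yet neither difference was called in the fit of all 7 groups: Ccl2 differed by -2.69 (SE 1.11, adjusted p = 0.085) and Ccl7 by -3.21 (SE 1.19, adjusted p = 0.053). With normexp background correction both were called (adjusted p = 0.016 and 0.0068), and with the authors' processed values too (0.017 and 0.0058). Both were also called in a fit of the 2 groups alone (0.031 and 0.035) and with the floor (0.046 and 0.015), and Ccl7 with slide as a block (0.027) and with quantile normalization (0.036). Ccl12, Ccl8 and Ccl1, which lie in the same cluster, were called in no comparison.

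The neutrophil attractants Cxcl1 and Cxcl5, of the CXC cluster at chr5:91190490-91334593 (mm9), rose at passage 0. Cxcl1 was not above background in any stem cell line and read -4.08, 0.03 and -0.18 in passage 0 myoblasts, at least 9.29-fold higher (adjusted p = 0.00052). It read 0.29, -0.51 and 0.71 in proliferating myoblasts, 0.81, -2.40 and -1.72 at day 1, -2.95, -4.91 and -3.75 at day 2 and -1.34, -2.26 and -2.40 at day 4, and was not above background in any quadriceps sample. Passage 0 replicate 1 lay apart from the other 2 passage 0 samples, as it did for Ccl2, Ccl7 and Cxcl5. Quadriceps was at least 2.93-fold lower than day 4 (adjusted p = 0.013), a call lost without day 4 replicate 1 (adjusted p = 0.052) or quadriceps replicate 2 (0.055), and with the authors' processed values (0.065), the floor (0.18) or normexp (0.21).

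Cxcl5 read -3.57, -0.26 and -0.58 in passage 0 myoblasts and was 12.99-fold above stem cells as measured (log2 difference 3.70, SE 1.09, adjusted p = 0.011). Only 1 of 3 stem cell lines was above background, and with the others at the floor the difference was 7.38-fold (adjusted p = 0.0078). Without stem cell replicate 2 its adjusted p was 0.066, and without passage 0 replicate 2 it was 0.058. In day 2 myotubes and quadriceps Cxcl5 was above background in no sample. Cxcl2 and Cxcl3, from the same cluster, were above background in 2 of 3 passage 0 samples each and so were not tested against stem cells.

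Cxcl10, the interferon-induced ligand of Cxcr3, averaged highest in day 4 myotubes. It read -1.23, -1.87 and -1.63 in proliferating myoblasts, -0.77, -3.69 and -3.06 at day 1, -1.09, -6.19 and -2.95 at day 2 and 1.51, -0.89 and 2.13 at day 4. The day 4 samples lay above all day 2 and all proliferating samples, but neither difference was called. It was 4.32 from day 2 (SE 1.10, adjusted p = 0.11) and 2.49 from proliferating myoblasts (SE 1.10, adjusted p = 0.11). Both were called with normexp (adjusted p = 0.036 and 0.019) and with the authors' processed values (0.032 and 0.0082). No quadriceps sample was above background, so quadriceps was at least 20.6-fold lower than day 4 (adjusted p = 0.00061). These values are those of the brighter Cxcl10 probe. The array's other Cxcl10 probe, made from another sequence, failed the background flag on every array of the 7 groups and so was not tested. Its day 4 mean differed by 0.39 from day 2 and by 0.09 from proliferating myoblasts, and its quadriceps mean by 0.07 from day 4.

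The neighbour Cxcl9 was above background in every sample of no group. Cxcl11, the third gene of that cluster at chr5:92752796-92788626 (mm9), read between 8.60 and 9.93 in all 21 samples of the 7 groups and was called nowhere. A second Cxcl11 probe, for the same transcript, had group means of only 1.95 to 3.17 and was called nowhere either. The bright signal is therefore no measure of how much Cxcl11 RNA was present. Ccl5, a T cell and monocyte attractant, read -3.55, -1.69 and -1.61 in passage 0 and 1.10, 0.65 and 0.87 in proliferating myoblasts. The difference of 3.16 (SE 0.78) had an adjusted p of 0.058, and it was called with quantile normalization (0.048), normexp (0.022) and the authors' processed values (0.028).

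The windows before Cxcl1 and Cxcl10 are shown for the induction elements they hold. Capitals mark the NF-kB element in both (GGGA, any 2 bases, TTCC) and the interferon element in Cxcl10 (GAAA, any 2 bases, GAAA), searched on both strands. In Cxcl1 a match on each strand overlap by all but 1 base. The 250 bases are those before the RefSeq start on the gene's strand, build GRCm38.p6.
Cxcl1, chr5:90890995-90891244, plus strand: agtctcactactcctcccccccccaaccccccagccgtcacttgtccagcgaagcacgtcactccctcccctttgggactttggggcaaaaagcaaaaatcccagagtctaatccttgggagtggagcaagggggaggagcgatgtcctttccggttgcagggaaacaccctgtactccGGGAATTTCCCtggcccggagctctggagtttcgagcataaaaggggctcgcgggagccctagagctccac
Cxcl10, chr5:92348890-92349139, minus strand: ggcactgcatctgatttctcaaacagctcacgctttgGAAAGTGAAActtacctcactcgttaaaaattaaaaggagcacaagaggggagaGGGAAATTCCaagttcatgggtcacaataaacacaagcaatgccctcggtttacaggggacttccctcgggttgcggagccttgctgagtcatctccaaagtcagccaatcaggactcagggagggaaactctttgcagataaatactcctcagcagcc

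The NF-kB element was in 6 of the 37 member promoters (16.2%), those of Ccl1, Ccr3, Cxcl1, Cxcl2, Cxcl3 and Cxcl10, against 1.17% of all 27025. The interferon element was in 3 of 37 (8.11%), those of Ccl19, Cxcl10 and Cxcl14, against 3.04% of all.

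Cx3cl1, the membrane-bound ligand of Cx3cr1, averaged highest in proliferating myoblasts. It read -1.07, -0.99 and -0.48 in stem cells, 2.39, 2.52 and 2.33 in passage 0 and 2.65, 5.55 and 4.13 in proliferating myoblasts. It read 1.25, 1.15 and 2.21 at day 1, -0.29, 3.05 and 0.62 at day 2, 0.73, 1.71 and 2.96 at day 4 and 0.55, -0.89 and -1.17 in quadriceps. Every myoblast sample lay above every stem cell sample, and days 2 and 4 overlapped proliferating myoblasts. The difference between passage 0 and proliferating myoblasts was not called. Passage 0 was 9.60-fold above stem cells (adjusted p = 0.0028), a call kept under every alternative.

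The later falls in Cx3cl1 passed the threshold by little. They were 5.95-fold at day 1 (adjusted p = 0.049), 4.96-fold at day 4 against proliferating myoblasts (0.038) and 4.94-fold in quadriceps against day 4 (0.031). The day 1 call was lost without any one of proliferating replicates 2 and 3 or the day 1 replicates (adjusted p from 0.078 to 0.18). The day 4 call was lost without proliferating replicate 2 (0.18) or 3 (0.075) or day 4 replicate 1 (0.16) or 2 (0.093), and the quadriceps call without day 4 replicate 2 (0.064) or 3 (0.13) or quadriceps replicate 2 (0.099) or 3 (0.11).

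Ccl17, a ligand of Ccr4 encoded beside Cx3cl1 in the cluster at chr8:97274709-97335829 (mm9), read 0.06, 1.14 and -0.40 in proliferating myoblasts, -3.61, -2.28 and -2.43 at day 1 and -4.27, -2.38 and -1.54 at day 4. Each myotube sample of those days lay below each proliferating sample, whereas at day 2 replicate 2 read 0.20 and the others -3.26 and -3.21. The fall was 8.22-fold at day 1 (adjusted p = 0.047) and 7.97-fold at day 4 (adjusted p = 0.022), where 2 of 3 samples were above background, or 5.34-fold with the floor (adjusted p = 0.021). The day 1 call was lost without any 1 of its 6 samples (adjusted p from 0.056 to 0.16). The day 4 call was lost without proliferating replicate 2 (0.085) or day 4 replicate 1 (0.12).

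Cxcl13, which attracts B cells, was in no stem cell line above background and read -2.07, -2.16 and -2.80 in passage 0 myoblasts, at least 4.89-fold higher (adjusted p = 0.00016). At day 1 it read -0.30, -2.80 and -1.40, above the proliferating values of -2.97, -4.94 and -4.16, with a difference of 2.52 (SE 0.79) that was not called (adjusted p = 0.053). It was called with quantile normalization (0.012) and the authors' processed values (0.0063). By day 4 no sample was above background. Cxcl16, a membrane-bound ligand of Cxcr6, ran the other way at the first step. It read -0.58, -1.99 and -1.41 in stem cells and -2.80, -3.75 and -3.90 in passage 0 myoblasts, a 4.46-fold fall (adjusted p = 0.0015). Cxcl16 and Cxcl13 were not called in any other comparison.

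**Figure D4:**
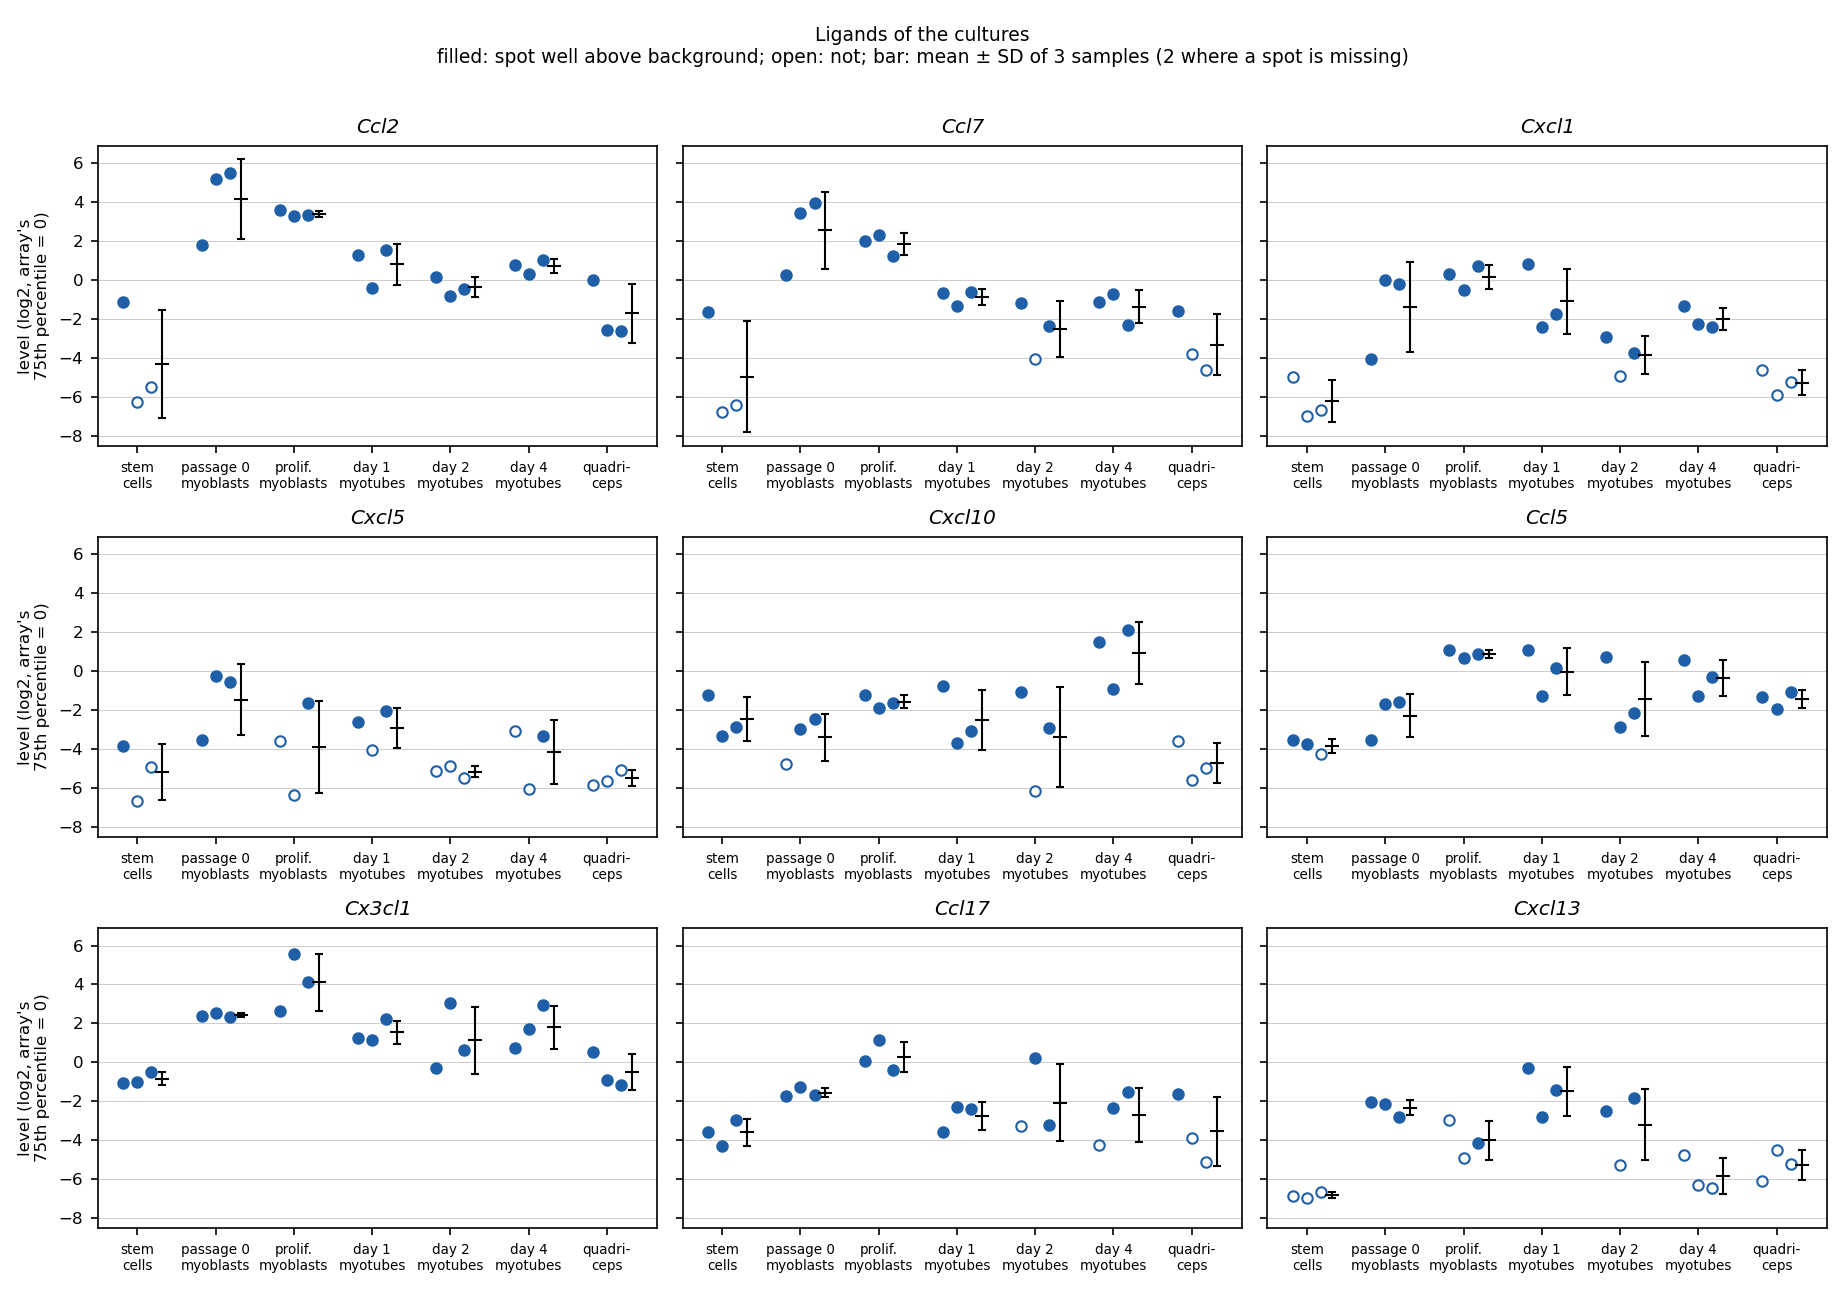
Level of 9 ligands (vertical axes, log2, array's 75th percentile = 0) in 7 groups (horizontal axes), as 1 point per sample with the mean and SD beside it; open points are spots not well above background. Ccl2 and Ccl7 are high in both myoblast groups, Cxcl10 is highest at day 4, and quadriceps points of Cxcl1, Cxcl5, Cxcl10 and Cxcl13 are all open.

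A last set of ligands was measured in passage 0 myoblasts and in quadriceps but scarcely between. Ccl6 and Ccl9, adjacent genes for macrophage attractants in the cluster at chr11:83339296-83478111 (mm9), were above background in no proliferating sample and in no stem cell line. Ccl6 read -0.52, 1.16 and -2.50 in passage 0 myoblasts and 1.49, 1.03 and 1.92 in quadriceps. Ccl9 read -0.42, -0.52 and -1.47 in passage 0 and 0.59, -0.03 and 0.59 in quadriceps. Passage 0 exceeded stem cells at least 12.7-fold for Ccl6 (adjusted p = 0.00025) and at least 14.2-fold for Ccl9 (adjusted p = 1.8e-06). Proliferating myoblasts were at least 8.41-fold below passage 0 for Ccl6 (adjusted p = 0.016) and at least 7.42-fold for Ccl9 (adjusted p = 0.0016).

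Ccl11, the eosinophil attractant eotaxin, read -2.98, -0.19 and 2.39 in passage 0 myoblasts, was above background in no proliferating sample, and read 0.29, 0.35 and -0.02 in quadriceps. Its passage 0 samples spread over more than 5 log2 units, replicate 3 highest. It was at least 20.7-fold above stem cells (adjusted p = 7e-05) and at least 10.8-fold lower in proliferating myoblasts (adjusted p = 0.016). Cxcl14, a chemokine of epithelia and connective tissue, read 0.19, -1.25 and -1.83 in stem cells, -0.16, 0.46 and -1.63 at passage 0 and -3.87, -3.33 and -6.63 in proliferating myoblasts, a 17.9-fold fall as measured (adjusted p = 0.037). Only proliferating replicate 2 was above background, and with the others at the floor the difference was 7.45-fold and not called (adjusted p = 0.063).

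These 4 falls between passage 0 and proliferating myoblasts depended on how they were tested. In a fit of those 2 groups alone none was called, with adjusted p of 0.66 for Ccl11, 0.58 for Ccl6, 0.43 for Ccl9 and 0.59 for Cxcl14, at the same log2 differences. With normexp correction 3 were lost, at adjusted p of 0.072 for Ccl11, 0.11 for Ccl6 and 0.11 for Cxcl14, and with slide as a block Cxcl14 (0.053). With the floor Ccl11 (0.088), Ccl6 (0.076) and Cxcl14 were lost and Ccl9 was called (0.026). The Ccl11 call was lost without passage 0 replicate 2 (0.08) or 3 (0.066) or proliferating replicate 2 (0.055), and the Ccl6 call without passage 0 replicate 2 (0.10) or proliferating replicate 2 (0.055). The Cxcl14 call was lost without passage 0 replicate 1 (0.12) or 2 (0.18) or proliferating replicate 3 (0.057). The Ccl9 call was kept whichever single sample was left out.

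In quadriceps the same ligands were called higher than in day 4 myotubes, under every alternative that tested them. Cxcl14 read 4.60, 3.99 and 4.32 in quadriceps against -2.13, -6.09 and -5.68 at day 4, where only replicate 1 was above background. That is a 490-fold difference as measured (log2 8.94, SE 0.94, adjusted p = 1e-06) and 223-fold with the other day 4 spots at the floor (adjusted p = 1.6e-07). Ccl6 was at least 34.6-fold higher in muscle (adjusted p = 1.2e-05). Ccl9 and Ccl11 were above background in 1 of 3 day 4 samples each. Ccl9 was 28.1-fold higher in muscle as measured (adjusted p = 1.1e-05) and 14.9-fold with the floor (adjusted p = 5.2e-05). Ccl11 was 32.2-fold higher as measured (adjusted p = 0.0012) and 11.6-fold with the floor (adjusted p = 0.0063). Ccl24, a second eosinophil attractant, was above background in quadriceps alone among the 7 groups. It read -0.75, -0.70 and 0.06 there and was at least 9.002-fold above day 4 (adjusted p = 0.00018).

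**Figure D5:**
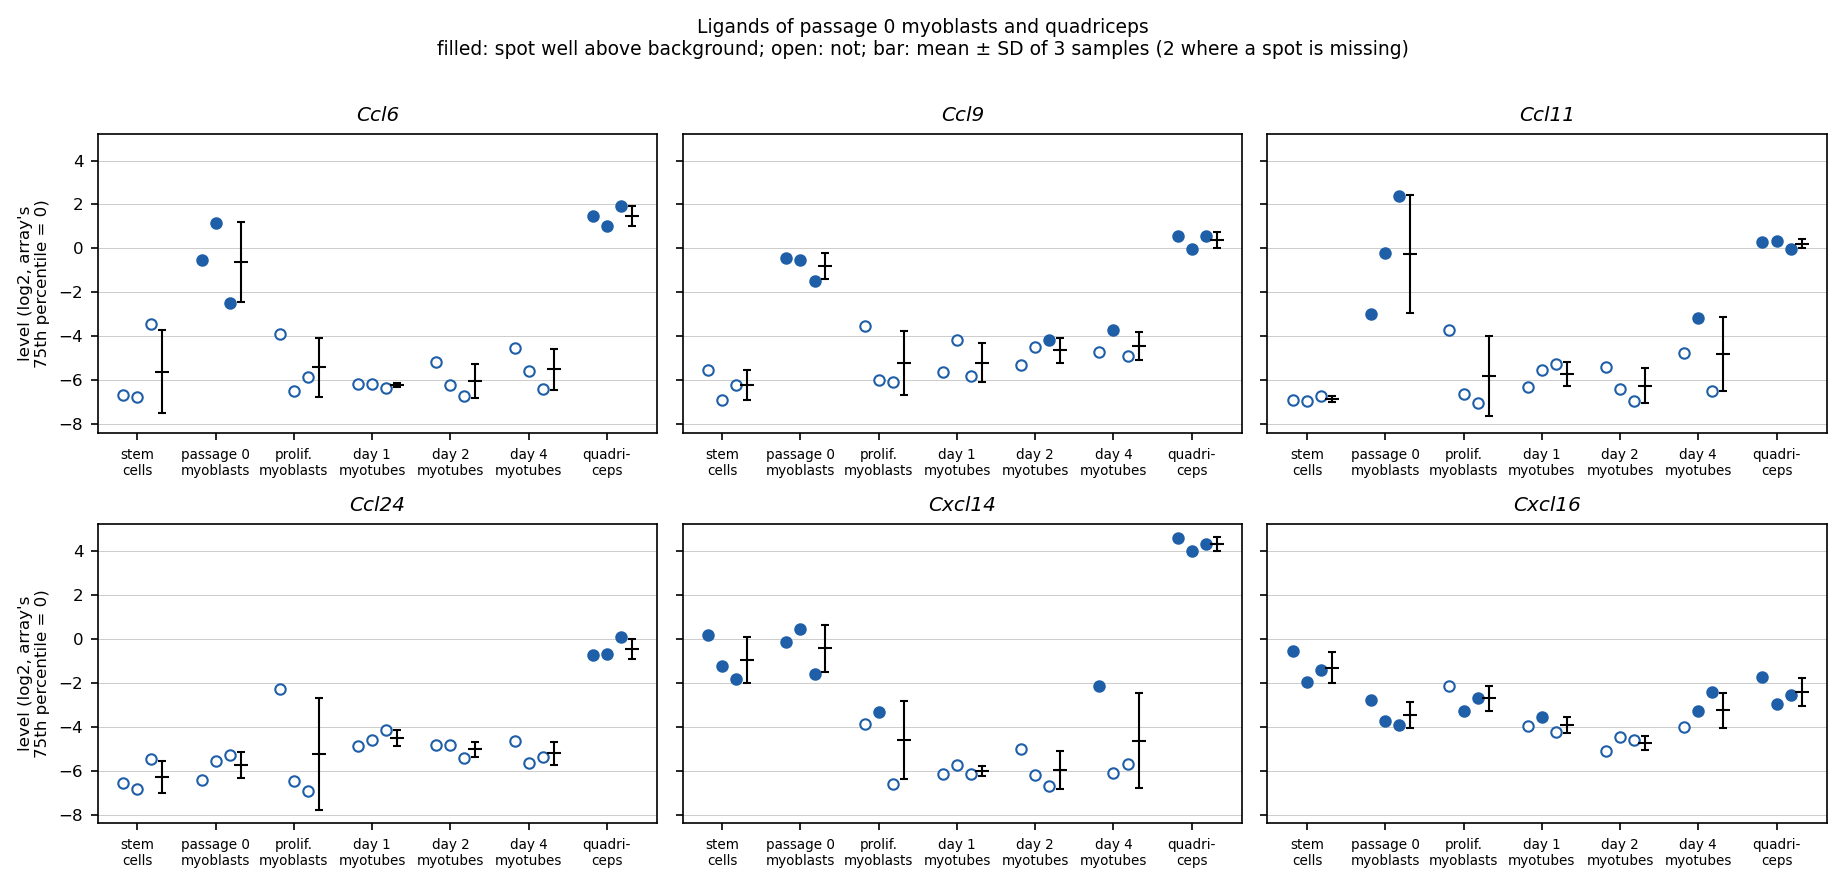
Level of 6 ligands (vertical axes, log2, array's 75th percentile = 0) in 7 groups (horizontal axes), as 1 point per sample with the mean and SD beside it; open points are spots not well above background. Ccl6, Ccl9 and Ccl11 have filled points in all passage 0 and quadriceps samples and none in proliferating myoblasts, and Ccl24 has filled points in quadriceps alone.

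Some markers of other cell types also differed between the groups in which these ligands differed. Of 15 leukocyte markers, 9 were above background in every stem cell sample, 14 in every passage 0 sample, 6 in every proliferating sample and 11 in every quadriceps sample. These counts also move with the brightness of the arrays. Lyz2 and Tyrobp, genes of macrophages and their kin, averaged 1.11 ± 2.00 and 1.42 ± 2.12 (SD, n = 3) at passage 0 and -0.74 ± 0.28 and 0.84 ± 0.32 in quadriceps. Neither was above background in any proliferating myoblast or myotube sample. Cd68, of the same list, was above background in every passage 0 sample but in no quadriceps sample. Of the leukocyte list 3 of 14 tested markers fell from passage 0 to proliferating myoblasts and none rose, beside 0.771% of all genes lower there. In quadriceps 6 of 11 were higher than at day 4 and none lower, beside 14.7% of all genes higher. All of these called markers had qualified through 1 group alone, so neither count is read against the shares of all genes. From stem cells to passage 0, 6 of 14 tested markers rose and 1, Coro1a, fell (4.29-fold), beside 17.5% and 19.8% of all genes. That count too includes markers qualified through 1 group alone and is not read against the shares. The list's summed level, on the log2 scale, ranged from 4.27 to 5.13 in stem cells and from 4.95 to 6.07 at passage 0. It ranged from 4.76 to 6.59 in proliferating myoblasts and from 5.61 to 6.29 in quadriceps. The sums of passage 0 overlapped those of each of the other groups.

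Of 7 fibroblast markers, 3 of 6 tested fell between passage 0 and proliferating myoblasts, beside 0.771% of all genes. In quadriceps 6 of 7 were higher than at day 4, beside 14.7% of all genes. Only Dcn of the 3, and only Col1a1 and Ly6a of the 6, were above background throughout both groups. These counts are therefore not read against the shares. Dcn averaged 3.33 ± 2.04 at passage 0, -1.92 ± 0.60 in proliferating myoblasts and 7.99 ± 0.32 in quadriceps. The fibroblast sum ranged from 0.53 to 2.42 in stem cells, from 4.57 to 5.68 at passage 0 and from 3.32 to 5.00 in proliferating myoblasts. It ranged from 3.33 to 4.12 at day 4 and from 8.00 to 8.88 in quadriceps. Of 10 endothelial markers, 9 were higher in quadriceps than at day 4, beside 14.7% of all genes. At day 4 Cdh5, Tie1, Flt1, Emcn and Esam were in no sample above background. Only Egfl7 and Cldn5 of the 9 were above background throughout both groups, so that count is not read against the share. Between passage 0 and proliferating myoblasts 0 of 6 tested were called, beside 1.16% of all genes. From stem cells to passage 0, 1 of 8 rose and 5 fell, beside 17.5% and 19.8% of all genes. The endothelial sum ranged from 3.16 to 5.37 at day 4 and from 6.26 to 6.97 in quadriceps. The part of these cell types in the ligand levels was not tested. In bulk samples, fewer cells of a type and less RNA per cell cannot be told apart.

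Among receptors other than Cxcr4 and Cxcr7 no difference was called in the fit of all 7 groups. Ccr2, which binds Ccl2 and Ccl7, was above background in 2 of 3 quadriceps samples, at -3.00 and -2.35, and in no culture. Ccr1, a receptor for Ccl5, was above background in no sample. Cx3cr1, the receptor for Cx3cl1 on monocytes and macrophages, read 1.79, -2.48 and -5.93 in passage 0 myoblasts, the last not above background, and was above background in 1 sample of day 4 and 2 of quadriceps. Its passage 0 samples thus spread over more than 7 log2 units, and it did not qualify for a test there. With no background filter its difference from stem cells was called (adjusted p = 0.048). Cxcr6, the receptor for Cxcl16, read -1.70, -2.17 and -1.52 in quadriceps against -4.50, -2.67 and -2.15 at day 4, a difference of 1.31 (SE 0.59, adjusted p = 0.098). It was called with slide as a block (adjusted p = 0.036) and without day 4 replicate 3 (0.036). Ccr8, a receptor of T cells, ranged from -4.54 to -2.17 over the 7 groups and was above background throughout stem cells, day 1 myotubes and quadriceps. That detection rests on the brighter Ccr8 probe alone. The array's other probe for the same transcript failed the background flag on every array of the 7 groups, with group means of -6.82 to -5.55. Cxcr3, the receptor for Cxcl10, was above background in 2 passage 0 samples and in no myotube sample.

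In the lists that follow, counts that include genes qualified through 1 group alone are not read against the shares of all genes. Genes of the chemokine system that the names leave out were followed from a list of 19, of which 14 are on the array. Of these, 2 of 8 tested rose from stem cells to passage 0 myoblasts and none fell, beside 17.5% of all genes higher. Pf4, a platelet and macrophage chemokine also named Cxcl4, averaged 1.22 ± 1.62 (SD, n = 3) at passage 0, -2.62 ± 1.20 in proliferating myoblasts and 2.22 ± 0.10 in quadriceps. It fell by 3.84 on the log2 scale between passage 0 and proliferating myoblasts (SE 0.91, adjusted p = 0.049), the only one of 7 tested to be called, and 2 of 3 proliferating samples were above background. Cmtm3, a chemokine-like membrane protein, fell by 2.57 from proliferating myoblasts to day 4 (SE 0.29, adjusted p = 7.2e-06), again the only one of 7, beside 10.2% of all genes lower.

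In quadriceps 5 of 10 tested genes of that list were higher than at day 4 and 2 lower, beside 14.7% and 16.3% of all genes. Ackr1 and Ackr2 bind inflammatory chemokines without signalling. Ackr1 was above background in 1 of 3 day 4 samples and was higher in muscle by 3.55 as measured (SE 0.55, adjusted p = 6.1e-05), or 6.59-fold with the other spots at the floor. Ackr2 was above background in no day 4 sample and was at least 7.57-fold higher in muscle (adjusted p = 0.00058). Rarres2, the attractant chemerin, was higher by 6.22 (SE 0.84, adjusted p = 1.6e-05), and Ccrl2, which binds it, was higher as well. Pf4, above background in no day 4 sample, was at least 57.9-fold higher. The chemokine-like Cklf and Cmtm7 were lower, by -2.02 (SE 0.30, adjusted p = 5.2e-05) and -1.51 (SE 0.40, adjusted p = 0.0065).

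The inducers of chemokine genes were followed too. Of 22 NF-kB and inflammatory genes, 12 of 20 tested rose and none fell from stem cells to passage 0 myoblasts, beside the 17.5% of all genes higher. Il1b, Il6 and the interleukin 1 receptor Il1r1 were above background in no stem cell line. Il1b was at least 12.4-fold higher at passage 0 (adjusted p = 5.3e-07), Il6 at least 7.06-fold (adjusted p = 5.9e-05) and Il1r1 at least 22.4-fold (adjusted p = 1.3e-06). In proliferating myoblasts Il1b was above background in 1 of 3 samples and fell by 3.22 from passage 0 as measured (SE 0.59, adjusted p = 0.012), or 4.77-fold with the other spots at the floor. At day 1 of differentiation 4 of 17 tested fell, Nfkbia, Nfkbiz, Cebpb and Cebpd, and Tnfaip3 rose, beside 3.25% and 5.9% of all genes. Nfkbia, an inhibitor that NF-kB itself induces, was also lower at day 4, by -1.72 against proliferating myoblasts (SE 0.31, adjusted p = 0.00045). In quadriceps 6 of 17 were lower than at day 4 and none higher, beside 16.3% of all genes lower.

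Of 13 interferon pathway genes, 3 of 9 tested were higher at day 4 than in proliferating myoblasts and none lower, beside 14.4% of all genes higher. These were Stat2, by 2.10 (SE 0.45, adjusted p = 0.0019), Irf9, by 2.00 (SE 0.56, adjusted p = 0.012), and the receptor chain Ifngr2, by 1.66 (SE 0.36, adjusted p = 0.0022). Stat2 and Irf9 are parts of the factor that binds the interferon element. Stat2 was higher by day 1, 3.86-fold above proliferating myoblasts. From stem cells to passage 0, 4 of 11 tested genes of the list rose and 3 fell, Stat2, Irf1 and Irf9, beside 17.5% and 19.8% of all genes. In quadriceps 2 of 11 were higher and 2 lower than at day 4, beside 14.7% and 16.3%. Of 24 genes of receptor signalling, 6 of 16 tested were lower and 1 higher at day 4 than in proliferating myoblasts, beside 10.2% and 14.4% of all genes. Rgs16, which shuts off G protein signals, was lower by -2.08 (SE 0.43, adjusted p = 0.0015) and the kinase Grk6, which silences receptors, by -1.50 (SE 0.32, adjusted p = 0.002). The others lower were Gnai3, Gnb1, Plcb3 and Jak2, and Stat3 was higher. At day 1 Rgs16 had been called higher than in proliferating myoblasts, by 3.12-fold. Of 12 genes for the release, display and turnover of chemokines, 1 of 9 was higher and 1 lower at day 4, the heparan sulphate carrier Gpc1 and the protease Mmp14, shares near those of all genes. In quadriceps 5 of 11 were lower than at day 4 and Mmp2 higher, beside 16.3% and 14.7% of all genes, and Sdc1 was lower by -3.60 (SE 0.43, adjusted p = 4.5e-06).

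Ccl25, a thymus and gut chemokine, was above background in all samples and showed where a call can hang on a probe. Its brightest probe read 0.47, 0.55 and 0.05 in stem cells and 1.62, 1.90 and 1.58 in passage 0 myoblasts, a 2.54-fold rise (adjusted p = 0.0025). Its other 2 probes differed by -0.77 (adjusted p = 0.19) and -0.23 (not tested), and the mean of the 3 gave an adjusted p of 0.82. Ccl19, a T cell attractant, was a case of the opposite kind in quadriceps. Its brightest probe differed from day 4 by 0.58 (SE 0.49, adjusted p = 0.40), whereas the other 2 probes were higher by 4.09 and 1.23 (adjusted p = 0.00013 and 0.0079 over all probes). Of the 52 members, 10 had more than 1 probe. Ccl19, Ccl24, Ccl25, Cxcl2, Cxcl3, Cxcl9, Cxcl11, Cxcl13, Ccr8 and Cxcr3 and the genes named from the other lists were picked after their values were seen.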

How the data were processed

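One-colour Cy3 microarrays (Agilent 8x60K) gave 1 intensity per spot on 23 arrays. Per the file headers, the scanner intensities were made with Feature Extraction 10.7.3.1, which detrended them, put surrogate values in place of dim spots and flagged spots well above background, with probe positions on build mm9. The authors also deposited log2 values of the same arrays; how they were normalised is not given in the sources used here, and they served as an alternative only.

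Spots flagged as outliers were dropped, replicate spots were averaged, and the log2 intensity was set relative to each array's 75th percentile. Of the probes, 26576 were named through their accession, 2607 by symbol and 492 by synonym in the RefSeq gene table, and 26006 kept the name in the deposited file. The brightest probe stood for a gene. The 7 groups of 3 samples were fitted together in limma 3.58.1 (R 4.3.3) with 14 residual degrees of freedom, and p-values were adjusted by the Benjamini-Hochberg method over all genes tested. Folds given as "at least" apply to a probe that failed the background flag in all samples of its dimmer group. They divide the brighter group's mean by a floor: on each dim array, either the dimmest signal that passed the flag or the signal of that probe, whichever was greater. After the data were seen, folds were also computed with spots below background raised to that floor where only some samples of the dimmer group passed the flag, and the fit was repeated on such values. The adjusted p beside a fold given as "at least" is that of the measured difference, not of the bound. The procedure was tested on simulated data. Python 3.11.15 drew the figures and searched the promoters.

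The members and gene lists were chosen with earlier results of these data known. Members named with values are, per comparison, up to 3 called members with the largest change in each direction, and a fixed set: Ccl2, Ccl7, Ccl5, Cxcl1, Cxcl5, Cxcl10, Cxcl12, Cxcl14, Cxcl16, Cx3cl1, Ccr1, Ccr2, Cxcr4, Cxcr6, Cxcr7 and Cx3cr1, beside 1 member that is not reported here. Alternatives covered background correction, normalization, the background filter, averaging of probes, slide and replicate blocks, fits of 2 groups and leaving out samples. The arrays lay on 3 slides of 8, 8 and 7, scanned on 1 day, and each of the 7 groups was spread over all of them. The arrays of the averaged E14tg2 line lay on slides 1 and 3, and the line was counted on slide 3. The precision of every value is limited by the 3 arrays of a group.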

Additional observations from a re-analysis of the deposited data

Results flagged for a closer look

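Both results here come from the single NOD/ShiLtj skeletal muscle sample, which entered no comparison and has no replicate. Its Cxcl10 signal was well above background at -3.01, whereas the 3 quadriceps samples ranged from -5.58 to -3.59 and none was above background. Its Cxcr4 signal was also well above background, at -3.47, against a range of -4.93 to -4.00 in quadriceps, where again no sample passed. The sample differs from quadriceps in strain, and its labels name no muscle, so strain and any difference in the muscle taken cannot be told apart.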

How the results depend on the processing

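Of 39 called member differences, 23 were called under every alternative that tested them and 16 were lost under 1 or more, and 0 changed direction. By comparison the calls kept were 12 of 14 between passage 0 myoblasts and stem cells, 0 of 4 between proliferating and passage 0 myoblasts, 0 of 3 at day 1, 1 of 2 from day 1 to day 2, 2 of 5 between day 4 and proliferating myoblasts (Cxcl12 and Cxcr7) and 8 of 11 between quadriceps and day 4. The cause of each change was not tested.

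With normexp background correction, proliferating against passage 0 myoblasts gave 1 higher and 1 lower, day 1 gave 5 lower, day 4 gave 1 higher against day 2 and 1 against proliferating myoblasts, and quadriceps gave 2 lower. With quantile normalization, proliferating against passage 0 myoblasts and day 1 each gave 1 higher. With the authors' processed values those 2 comparisons each gave 1 higher and day 1 gave 5 lower, day 4 gave 1 higher against day 2 and 1 higher and 8 lower against proliferating myoblasts, and quadriceps gave 2 lower. With no background filter, passage 0 against stem cells gave 2 lower, day 1 gave 1 lower and quadriceps 2 lower. Requiring both groups to be above background left 4 higher at passage 0 against stem cells, 0 lower in proliferating myoblasts, 1 lower at day 1, and 2 higher and 1 lower in quadriceps. These counts have no share of all genes beside them, because none was computed under that filter. At day 1, Ccl17 and Cx3cl1 were still tested but not called, whereas in the other comparisons named the members lost could no longer be tested. Slide as a block gave 1 lower at day 1, and fits of the 2 groups alone gave 0 lower both in proliferating against passage 0 myoblasts and at day 1.

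The replicate block gave 1 higher in each of 4 comparisons: Ccl5 in proliferating against passage 0 myoblasts (adjusted p = 0.038), Cxcl13 at day 1 (0.037) and Cxcl10 at day 4 against day 2 and against proliferating myoblasts (0.048 each); it lost Cxcr4 in quadriceps (0.054). The correlation of deviations between samples of the same number ranged from -0.048 to 0.63. It passed 0.1 for all 3 numbers between proliferating myoblasts and day 2 and between day 1 and day 4, and not in the other 4 pairs of groups, so the numbers were not taken to pair the samples over the series.

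After the data were seen, the fit was repeated without the arrays whose titles carry the number 21, which gave 1 higher in proliferating against passage 0 myoblasts and 1 lower from day 1 to day 2, and without the dimmest arrays, which gave 1 higher at day 1. With spots below background raised to the floor, proliferating against passage 0 myoblasts gave 1 lower, day 4 against proliferating myoblasts 1 higher, and quadriceps 2 lower. Leaving out 1 sample at a time gave 12 to 14 higher and 1 lower at passage 0 against stem cells, 1 to 4 lower in proliferating myoblasts, 0 to 1 higher and 0 to 2 lower at day 1, 2 to 3 lower from day 1 to day 2, 0 to 1 higher and 3 to 5 lower at day 4 against proliferating myoblasts, and 7 to 8 higher and 2 to 4 lower in quadriceps.

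Quantile normalization moved the median of all genes from -0.26 to -0.05 at passage 0 against stem cells and from 0.14 to -0.07 in proliferating against passage 0 myoblasts. In the latter the share of calls that were higher was 33.8%, and 23.3% after quantile normalization and 51.3% with normexp. Between day 2 and day 4 it was 80% of 55 calls, and 68.3% after quantile normalization. The median SD within a group was 0.739 in proliferating myoblasts and 0.288 at passage 0, and 26 of 52 members were not above background throughout any group, so small differences in those were not detectable.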

Other observations

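Of the 52 members, 22 were above background in the NOD muscle sample. Of these, 8 lay within the range of the 3 quadriceps samples, 9 above it and 5 below it. Ccl19, which draws T cells and dendritic cells, read 0.86 there against -1.91 to -1.21 in quadriceps, and Cxcl9, a ligand of Cxcr3 that interferon induces, read -2.80 against -5.60 to -3.20. Both were picked after their values were seen, and 1 sample allows no test. Cxcl12 at 3.93 and Ccl6 at 0.50 lay below quadriceps, and Cxcl14 at 4.98 and Cxcr7 at 1.34 above it.

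Single samples stood apart for several members, picked after their values were seen. Ccl8, a monocyte attractant of the Ccl2 cluster, was above background in all passage 0, day 4 and quadriceps samples and called in no comparison. It read 2.17 in day 1 replicate 3, against -3.98 and -3.53 in the other day 1 samples and -0.02 in the highest quadriceps sample. Cxcl15 read 1.39 in proliferating replicate 1, on the dimmest array, and was above background in no other sample. Cxcr2, a neutrophil receptor, was likewise above background in that sample alone, at -1.27.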
